A study of Cyprinus carpio with 6 samples.

Results

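The cyclin A and B genes of mid-blastula common carp embryos are described here, chosen as every gene symbol in the deposited tables that begins with ccna or ccnb and a digit. This gave 3 genes, ccna1, ccnb1 and ccnb2, of 40568 genes and loci with a count, and all 3 had enough counts to be among the 27342 genes tested. The RNA-Seq data came from whole embryos of common carp (*Cyprinus carpio*) at the mid-blastula stage, with 3 libraries of embryos from fresh sperm (0 days after stripping) and 3 of embryos from sperm kept 14 days on ice. The same mature males gave both kinds of sperm, which was diluted in an extender, and all oocytes came from 1 female, so the eggs of both groups share their mother. The number of embryos in a library and the male behind each replicate number are not given in the sources used here, so the p-values cover the variation among the 6 libraries, which may be technical. The paper describes repeated hormone injection and stripping of the males, and the stripping behind each kind of sperm is not given. If the strippings differed, storage and stripping occasion cannot be told apart. The comparison asks whether these transcripts differed between embryos from stored and from fresh sperm.

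Cyclins A and B are the regulatory partners of the cyclin-dependent kinase CDK1. B-type cyclins with CDK1 form M-phase promoting factor, which drives a cell into mitosis, and A-type cyclins act in S phase and at the entry into mitosis. Both are destroyed through the anaphase-promoting complex in each mitosis and made again in the next cycle. In fish and frog embryos the fast cleavage divisions before the mid-blastula transition run on mRNAs that the egg stored, with cyclin A1 as the A-type form of eggs and early embryos in *Xenopus*.

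The label of maternal genes could not be tested, since a single stage was sampled. What the data show is the company in which the cyclins stood. A list of 19 egg transcripts had 8 genes with a count, together at 1881 to 2208 CPM (a gene's count as a share of its library, scaled between libraries by the TMM method of edgeR), led by the pluripotency factor genes nanog and pou5f3 at means of 811 and 732 CPM. Its sum rested on these and on lsm14b at 446 CPM, while its other tested genes btg4, cpeb1b and slbp2 had means of 17.1, 6.31 and 1.33 CPM, below that of the zygotic list's sox19b. A list of 20 early zygotic genes had 6 with a count, together at 37.9 to 69.5 CPM, and its only tested member was that sox19b, at a mean of 48.6 CPM, a gene whose mRNA zebrafish eggs also hold. Lists of 19 spermatozoon and flagellum genes and of 20 genes of blood, muscle and other differentiated tissues reached at most 3.75 and 2.20 CPM. Genes were matched to the lists by symbol, and 24674 of the 32765 annotated genes with a count carry only a LOC number. A low sum can therefore reflect genes that were not matched. Total counts per library were 14993459 to 15632387. On the first principal component of log2 CPM, which carried 22.9% of the variance, replicate 3 of each group stood apart, at 44.0 and 53.2 against -28.6 to -15.2 for the other 4 libraries.

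All 3 cyclins were among the most abundant transcripts in these libraries, which were made from mRNA enriched with oligo(dT) beads. The levels are those of RNA captured in this way, and the part of the capture in them was not tested. By mean CPM 3 genes, all of them mitochondrial, stood above all 3 cyclins. With mitochondrial genes included, ccna1 was rank 4 or 5 by count within a library, ccnb1 rank 5 or 6 and ccnb2 rank 6 to 8. By mean CPM ccna1, ccnb1 and ccnb2 were ranks 1, 2 and 3 among nuclear genes and loci, of which 34759 to 35277 had a count in a library. The order held for ccna1 and ccnb1 in all 6 libraries, while ccnb2 was rank 4 in replicate 2 of each group, behind LOC109112777, which had a mean of 1637 CPM. Together the 3 genes took 0.551 to 0.617% of all counts in a library. Since whole embryos were sequenced, fewer cells that hold a transcript and less of it per cell cannot be told apart.

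ccna1, the gene of cyclin A1, lies on chromosome B10 from 16598874 to 16601551 (assembly ASM1834038v1, the one the authors used) and has 2 annotated transcripts. Its level was 2031, 2032 and 2285 CPM in replicates 1, 2 and 3 from fresh sperm. After storage of the sperm it was 1928, 2055 and 2248 CPM. Replicate 3 was the highest library in each group, and the ranges of the groups overlapped over most of their width. The means were 2116 ± 146 CPM for fresh and 2077 ± 161 CPM for 14-day-aged sperm (SD, n = 3).

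ccnb1, the gene of cyclin B1, whose loss stops mouse embryos in early cleavage, lies on chromosome B5 from 24606447 to 24609864. It stood at 1911, 1906 and 2202 CPM in the fresh sperm group. After storage it stood at 1845, 1986 and 2142 CPM. Here too replicate 3 was the highest of each group and the groups overlapped. The means were 2006 ± 170 and 1991 ± 148 CPM (SD, n = 3), the smallest difference of the 3 genes.

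ccnb2, the gene of cyclin B2, a B-type cyclin that mice can lose and still be fertile, lies on chromosome B7 from 17663923 to 17666747. It stood at 1693, 1657 and 1907 CPM in embryos from fresh sperm. For 14-day-aged sperm it was 1639, 1541 and 1791 CPM. The lowest of all 6 values was replicate 2 from 14-day-aged sperm, yet replicates 1 and 2 from fresh sperm lay inside the range of the other group. The means were 1752 ± 135 and 1657 ± 126 CPM (SD, n = 3).

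**Figure D1:**
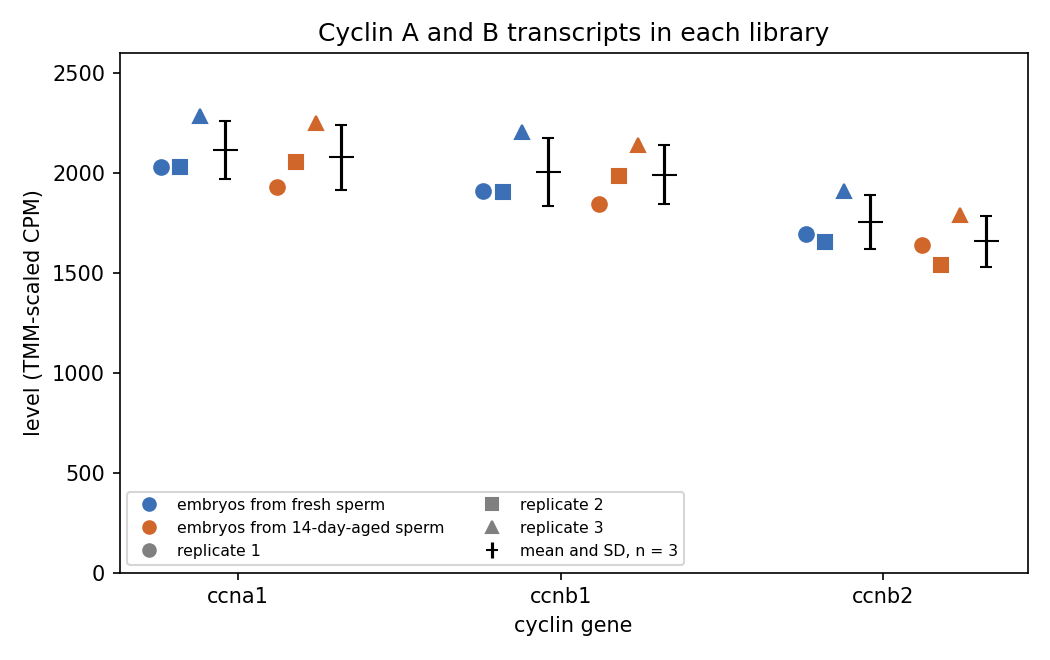
Level of ccna1, ccnb1 and ccnb2 in TMM-scaled CPM (vertical axis, from 0) in each library, blue for embryos from fresh and orange for embryos from 14-day-aged sperm, with a marker shape for each replicate number and the mean and SD of 3 libraries in black. Replicate 3 is the highest point in all 6 sets, and the groups overlap for each gene, for example at 1657 to 1907 CPM against 1541 to 1791 CPM for ccnb2.

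No change of the 3 cyclins after storage of the sperm was found beyond the spread between libraries. By edgeR's quasi-likelihood test, adjusted over all tested genes after Benjamini and Hochberg, 0 of the 3 passed an adjusted p of 0.05, where 4 of the 27342 tested genes (0.0146%) did. At an unadjusted p under 0.05 the count was 0 of 3 against 3.36% of all tested genes. DESeq2 called 0 of 3 beside 0.163% of its genes by adjusted p and 0 of 3 beside 1.82% by unadjusted p. With a replicate block in edgeR the unadjusted count was 1 of 3, ccnb2, beside 5.74% of all tested genes, and its adjusted p was 0.866. The log2 fold change of ccna1, 14-day-aged over fresh, was -0.027 (standard error 0.0876, adjusted p = 0.9998 from edgeR, as for the other 2), with a 95% interval that spans folds of 0.851 to 1.13. For ccnb1 it was -0.011 (standard error 0.0912) with an interval of 0.855 to 1.15. For ccnb2 it was -0.081 (standard error 0.0878) with an interval of 0.819 to 1.09. Differences inside these intervals cannot be told from 0 with 3 libraries a group. All 3 estimates were below 0, as were 50.3% of all tested genes, and 0 of the 3 had groups without overlap, against 8.56% of all tested genes. The sign of ccna1 and ccnb1 turned when replicate 3 from fresh sperm was left out (0.031 and 0.060) or when replicate 1 from 14-day-aged sperm was left out (0.025 and 0.041).

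The sum of the 3 cyclins, built from the same values, gave the same picture. It does not depend on how reads are divided among the 3, but it leaves out any copies that carry only a LOC number. In embryos from fresh sperm the summed level was 5635, 5594 and 6394 CPM, and after storage 5412, 5582 and 6181 CPM. The difference of the group means on the log2 scale was -0.037 (two-sided exact permutation test, p = 0.5, where 0.1 is the smallest p the design allows).

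What the 3 genes shared across libraries was a high replicate 3. It was the highest library of each group for 3 of 3 cyclins, a pattern that 19.7% of all tested genes showed. The pattern was not particular to the cyclins. Of the cell cycle genes named below as the highest of their lists, tpx2, wee2, cdc25b, cdc20, fbxo43, ccng1, ccnt2b and ccnh showed it too. cdc16, bub1, bub1bb and zw10 did not. For the cyclins, replicate 3 lay 0.11 to 0.14 above its group's mean on the log2 scale. The other libraries were not alike for all 3: in the 14-day-aged group ccna1 and ccnb1 were lowest in replicate 1 (-0.10 and -0.11 from the group's mean) and ccnb2 in replicate 2 (-0.10). Counting error was far below this, at 0.547 to 0.649% of a value. In the 2 replicate 3 libraries the egg transcript list was at its highest in each group (2208 and 2121 CPM). Its gene nanog was not so after storage (832 CPM, beside 846 CPM in replicate 1). Of the lists described below, CDK1 partners and switches (2863 and 2776 CPM) and other cyclins (1471 and 1456 CPM) were also highest there. So was the anaphase-promoting complex (654 and 631 CPM). The spindle checkpoint, spermatozoon and differentiated tissue lists were not highest there in both groups. The early zygotic list was highest there in neither group (42.1 and 45.0 CPM). That zygotic sum was almost all sox19b (41.9 and 44.7 CPM), whose mRNA zebrafish eggs also hold. Fewer genes had a count in these libraries (34772 and 34780 against 35137 to 35289). Mitochondrial genes took their largest share of counts in each group there (1.93 and 2.57%). The part of these measures in the cyclin levels was not tested. With both of these libraries left out, a choice made after seeing the data, the log2 fold changes were -0.028, 0.0053 and -0.075 for ccna1, ccnb1 and ccnb2 (standard errors 0.0485, 0.0512 and 0.0486), and edgeR again called 0 of 3. The spread within groups, as a standard deviation of log2 CPM, was 0.105, 0.114 and 0.109 for ccna1, ccnb1 and ccnb2. The median over the 25 genes and loci with a mean of at least 1000 CPM, which include the cyclins, was 0.109.

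Levels of different genes are compared per length, in FPKM (fragments scaled by transcript length and library size), as the authors deposited them. On this scale the order changed, with a deposited length of 1540 bases for ccnb1 and about 1740 bases for ccna1. ccnb1 came first among nuclear genes, at 1576 ± 77.1 FPKM (SD, n = 6 libraries), and was rank 1 in all 6. ccna1 followed at 1427 ± 62.3 FPKM and was rank 2 or 3, next to LOC109110918 at a mean of 1420 FPKM, a neighbour in the order from which it did not differ beyond its spread. ccnb2 stood at 1290 ± 72.9 FPKM and was rank 4 or 5. By mean FPKM 6 mitochondrial genes stood above all 3.

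Within a library the ratio of ccnb1 to ccna1 FPKM hardly moved. It was 1.09, 1.09 and 1.12 in replicates 1, 2 and 3 of the fresh sperm group and 1.11, 1.12 and 1.10 after storage, above 1 in 6 of 6 libraries. The group means of its log2 were 0.13 and 0.15, a difference of 0.016 (two-sided exact permutation test, p = 0.3, smallest possible 0.1). The SD of the log2 ratio within a group was 0.022 and 0.011, smaller than that of either gene's own level.

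ccnb2 followed the other cyclins less closely in the 14-day-aged sperm group only. There the SD of its FPKM ratio was 0.0539 to ccnb1 and 0.0562 to ccna1, against 0.00840 for ccnb1 to ccna1 (n = 3). In the fresh sperm group the same SDs were 0.0106, 0.0118 and 0.0170. The ratio of ccnb2 to ccnb1 in FPKM was 0.851, 0.834 and 0.831 in embryos from fresh sperm. In embryos from 14-day-aged sperm it was 0.853, 0.745 and 0.803, so that replicate 2 stood below all other libraries and replicate 1 above them. By counts, ccnb2 made up 43.7% of the counts of both B-type cyclins in that replicate 2 (95% Wilson interval 43.3 to 44.1%), against 45.5 to 47.1% in the other 5 libraries, whose intervals did not reach below 45.1%. These intervals cover counting error only. This library was singled out after its value was seen, and the ratio was not tested between groups.

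**Figure D2:**
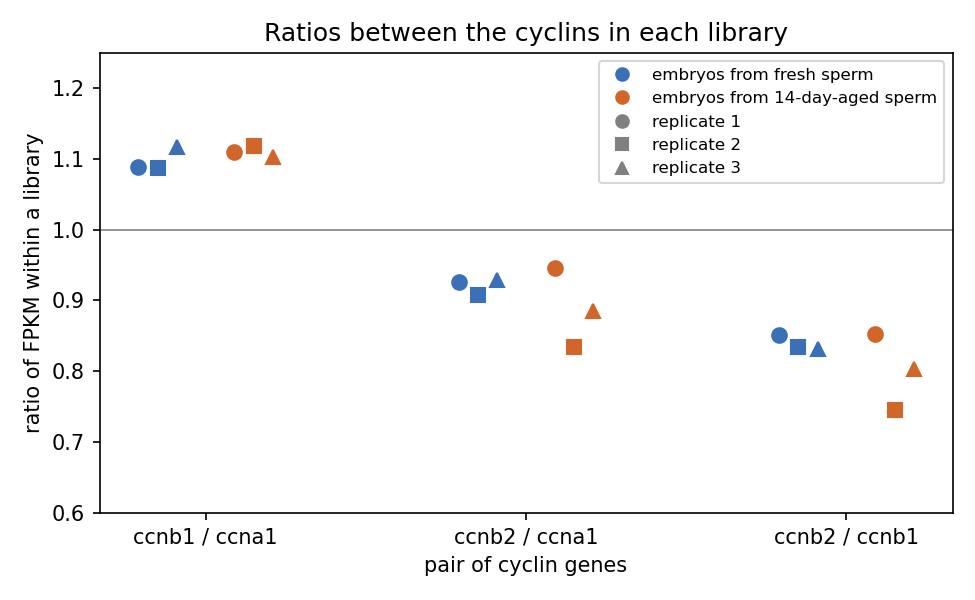
Ratio of FPKM within a library (vertical axis, from 0.6) for the 3 pairs of cyclin genes, blue for embryos from fresh and orange for embryos from 14-day-aged sperm, with a marker shape for each replicate number. The ratio of ccnb1 to ccna1 stays between 1.09 and 1.12. The ratios with ccnb2 range more widely in the 14-day-aged sperm group, down to 0.745 in replicate 2, a library singled out after its value was seen. They were not tested between groups.

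Common carp is allotetraploid, and a near-identical second copy of a gene can share reads with it. The deposited counts are estimates that divide shared reads between loci, and 58.2 to 58.8% of the listed counts of a library were whole numbers (within 0.005). Of the 18 cyclin values 16 were whole, and the other 2 missed a whole number by 0.01. Whole values do not show that no read was shared. All 3 genes lie on chromosomes named B, and further cyclin copies that carry only a LOC number, as 24674 of the 32765 annotated genes with a count do, could not be recognised by symbol and were not analysed here. No annotated gene overlaps any of the 3. Their counted neighbours were far lower. slc30a5, a zinc transporter gene 984 bases from ccnb1, stood at 5.64 to 7.16 CPM and rnf111, a ubiquitin ligase gene 1836 bases from ccnb2, at 107 to 114 CPM. On the other side of ccnb2, at 1498 bases, the myosin gene myo1ea had a mean of 0.163 CPM. The locus next to ccna1, LOC109089440 at a distance of 505 bases, stood at 0.137 to 0.393 CPM.

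Among the other cell cycle genes no difference passed the test either. Of 93 symbols in 4 lists (partners and switches of CDK1, the anaphase-promoting complex, the spindle checkpoint and other cyclins), 47 had a count and 39 were tested. Higher or lower after storage by adjusted p were 0 of 39 in edgeR, beside 0.0146% of all tested genes. DESeq2 called 0, beside 0.163% of its genes. At an unadjusted p under 0.05 in edgeR the count was 0, beside 3.36% of all tested genes. A log2 fold change below 0 was found for 23 of the 39, beside 50.3% of all tested genes. The median log2 fold change of the 39 was -0.012, beside -0.00090 over all tested genes. In FPKM 0 of the 39 reached the level of any of the 3 cyclins.

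Among the partners and switches of CDK1, 11 genes were tested, with a median log2 fold change of -0.0036. tpx2, which activates the kinase Aurora A on spindles, stood at 841 ± 32.0 CPM in the fresh and 839 ± 19.4 CPM in the 14-day-aged sperm group (SD, n = 3). wee2, known in mammals as an oocyte kinase that holds CDK1 inactive, stood at 740 ± 65.3 and 728 ± 59.1 CPM. cdc25b, a phosphatase that removes that brake, stood at 463 ± 41.0 and 455 ± 14.2 CPM. Per length, ccnb1 was 4.69, 3.75 and 8.16 times as abundant as these 3 genes. The symbol cdk1 itself had only 2.64 to 9.98 counts per library and was too low to be tested. Any copy of cdk1 that carries only a LOC number could not be recognised by symbol, so the level of all cdk1 mRNA is not known here.

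Of the anaphase-promoting complex and its regulators 9 genes were tested, with a median log2 fold change of -0.039. cdc20, the activator that brings cyclin B to the complex, stood at 304 ± 17.2 and 306 ± 22.2 CPM in the same order (SD, n = 3). fbxo43, known as Emi2, which blocks the complex in the arrested egg, stood at 153 ± 29.9 and 140 ± 23.3 CPM. Its log2 fold change of -0.13 (standard error 0.162) was the furthest from 0 of the 12 genes named from the 4 lists. With a replicate block in edgeR its unadjusted p was 0.0147 and its adjusted p 0.846. The subunit gene cdc16 stood at 55.1 ± 2.86 and 55.5 ± 4.83 CPM.

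The spindle checkpoint, which holds cdc20 back until chromosomes are attached, had 6 tested genes and a median of -0.039. Its kinase gene bub1 stood at 154 ± 7.53 and 155 ± 5.31 CPM, its partner bub1bb at 86.9 ± 1.93 and 82.0 ± 7.30 CPM, and zw10, a kinetochore protein gene, at 19.5 ± 1.09 and 18.8 ± 4.06 CPM (SD, n = 3). Of the other cyclins 13 were tested, with a median of -0.011. ccng1, a cyclin tied to the p53 response in mammals, was the highest of them at 779 ± 69.7 and 777 ± 60.9 CPM. ccnt2b, whose human counterpart partners the elongation kinase CDK9, and ccnh, a partner of the CDK-activating kinase, followed at 217 ± 5.37 and 212 ± 5.08 CPM and at 73.6 ± 7.76 and 78.4 ± 7.10 CPM. In every one of these 12 genes the adjusted p from edgeR was 0.9998 and the libraries of the groups overlapped. Among the other tested genes of the cell cycle lists, the groups did not overlap for ccnj and ccnf, both lower after storage. ccnj stood at 30.1 ± 0.917 and 27.9 ± 1.32 CPM, and ccnf at 12.4 ± 1.09 and 10.8 ± 0.614 CPM (SD, n = 3). Their adjusted p from edgeR was also 0.9998. Of all tested genes, 8.56% had groups without overlap. Other tested genes of these lists had log2 fold changes further from 0 than fbxo43, in both directions. Above 0 were ccnd2b at 0.92 (standard error 0.980, libraries at 0 to 26.1 CPM), mad2l2 at 0.27 (0.158) and aurka at 0.24 (0.284). Below 0 were ccnf at -0.20 (0.109), bub1ba at -0.15 (0.632) and cdc23 at -0.14 (0.164). The adjusted p from edgeR was 0.9998 for each.

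**Figure D3:**
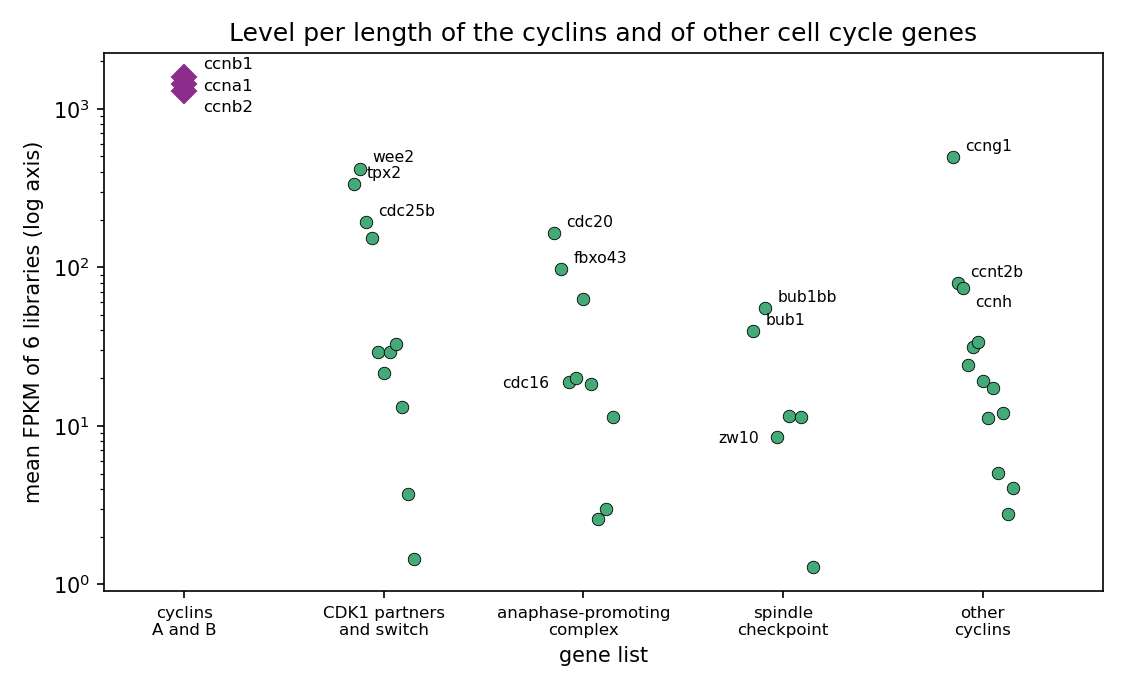
Mean FPKM of 6 libraries (vertical log axis) of the 3 cyclins (purple diamonds) and of the 39 tested genes of 4 cell cycle lists (green circles), with the 3 genes of highest mean CPM in each list named. The cyclins lie at 1290 to 1576 FPKM, above every gene of the lists, the nearest of which is ccng1 at 495 FPKM.

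**Figure D4:**
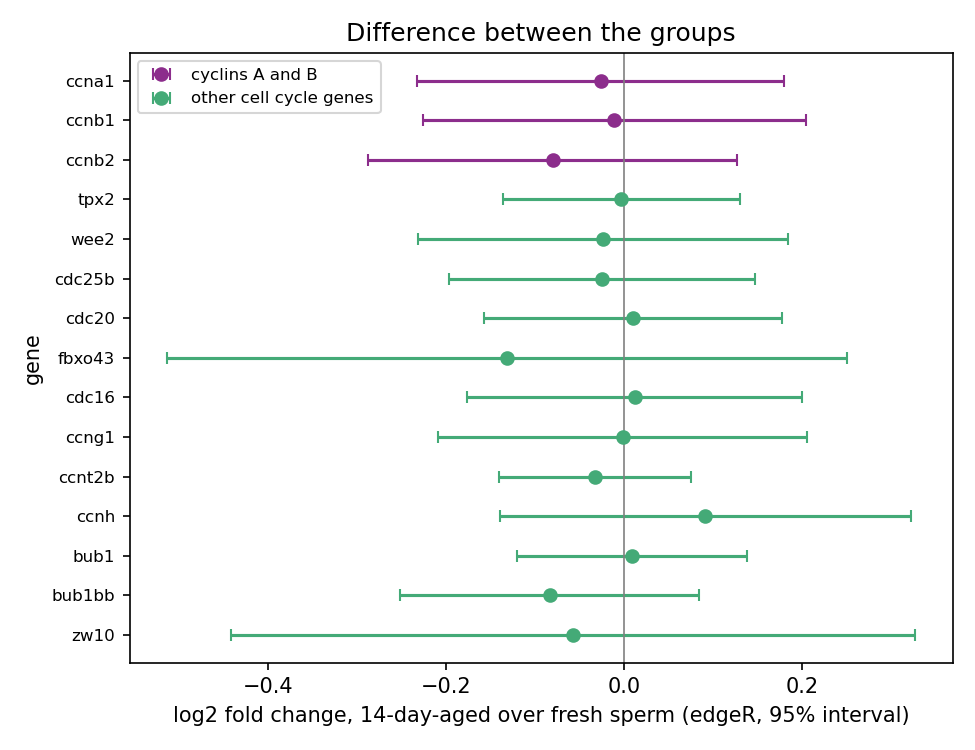
Log2 fold change of embryos from 14-day-aged over embryos from fresh sperm (horizontal axis) for the 3 cyclins (purple) and 12 other cell cycle genes (green), with the 95% interval from edgeR. Every interval includes 0, and the cyclins lie at -0.081 to -0.011.

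The cyclins were also compared with all 10926 tested annotated genes of at least 10 CPM by their profile over the 6 libraries, as the root mean square difference of log2 CPM after each gene was centred on its own mean. The 3 genes most like ccna1 were LOC109053404, LOC109105630 and LOC109102083, at 0.0080, 0.011 and 0.013. The 3 most like ccnb1 were LOC109105691, LOC122138734 and LOC109105630, at 0.0090, 0.010 and 0.011. ccna1 and ccnb1 differed from each other by 0.016, with 11 genes closer to ccna1 and 15 closer to ccnb1. ccnb2 was further from both, at 0.060 and 0.067, with 1443 and 1742 genes closer, beside medians of 0.12 over all these genes. The largest gap was in replicate 2 from 14-day-aged sperm, the library singled out above. There the centred value was -0.14 for ccnb2, beside -0.026 for ccna1 and -0.0064 for ccnb1. The root mean square differences describe 6 libraries that share their scaling, and genes with small differences between libraries are close to each other by this measure.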

How the data were processed

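For the authors' tables, HISAT2 placed filtered reads on assembly ASM1834038v1, StringTie and Cuffmerge built the transcripts, and Bowtie2 was the second aligner. Versions and strand use were not given in the sources used here. The authors deposited estimated counts, FPKM and TPM per gene and the gene lengths in bases for each library. The labels of these values name RSEM, a tool that the study's methods do not mention. A deposited table of the authors' p-values and log2 fold changes was not used.

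After rounding, the estimated counts went into edgeR 4.0.16 under R 4.3.3 (TMM, filterByExpr, quasi-likelihood test, Benjamini-Hochberg adjustment over 27342 genes, threshold 0.05); the threshold of the study's methods, which used DESeq2, was not applied. The standard error is the log2 fold change divided by the square root of F. Depth was 14993459 to 15632387 counts per library. Groups, replicates and storage times came from the labels. Symbols were matched to 3 entries of a RefSeq gene table of that assembly. Protein sequences were not used here, so that related loci and protein motifs were not analysed.

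The members and lists were chosen with earlier results of these data known. By rule, named were all members, the 3 highest tested genes of each cell cycle list (the called ones first), at most 2 of each marker list and the 3 genes most like ccna1 and ccnb1. Outside this rule, the other tested genes of the egg transcript list, cdk1, ccnj, ccnf, neighbouring genes and loci of similar rank were also named. So were ccnd2b, mad2l2, aurka, bub1ba and cdc23. Alternatives were DESeq2 1.42.0, RLE size factors, other filters, a table of annotated genes, a replicate block, each library left out and limma 3.58.1 on log2(FPKM + 1) and log2(FPKM + 0.1) for means of at least 0.5 FPKM. Tests were run on simulated data with changes far larger than those estimated for the cyclins. That check does not bear on differences as small as theirs. Summaries and plots used matplotlib 3.10.9, numpy 2.4.6, pandas 2.3.3 and scipy 1.17.1 under Python 3.11.15.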

Additional observations from a re-analysis of the deposited data

How the results depend on the processing

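In every alternative run, 0 of the 3 cyclins were called. The number of genes called over the whole table was 4; it was 57 in DESeq2, 1 with at least 10 counts in every library, 2 with annotated genes only, 0 with the replicate block (1569 at an unadjusted p under 0.05), 7 without both replicate 3 libraries and 3 to 9 with single libraries left out (9 without fresh sperm replicate 3). For ccnb1, whose sign turned, the value was 0.00019 on log2(FPKM + 1) and on log2(FPKM + 0.1) and 0.0053 without both replicate 3 libraries; for tpx2 these were 0.0076, 0.0076 and 0.0094, and for ccng1 0.0097, 0.0097 and 0.0068, with 0.00074 at 10 counts in every library. Without both replicate 3 libraries cdc25b was at 0.036, cdc20 at -0.0027 and bub1 at -0.0047. With single libraries left out, log2 fold changes ran from -0.084 to 0.031 for ccna1, from -0.064 to 0.060 for ccnb1, from -0.14 to -0.016 for ccnb2, from -0.021 to 0.027 for tpx2, from -0.089 to 0.050 for wee2, from -0.067 to 0.049 for cdc25b, from -0.046 to 0.055 for cdc20, from -0.27 to 0.039 for fbxo43, from -0.046 to 0.080 for cdc16, from -0.020 to 0.052 for bub1, from -0.15 to 0.11 for zw10, from -0.065 to 0.072 for ccng1, from 0.0097 (without fresh sperm replicate 1) to 0.15 for ccnh, from -0.16 (without 14-day-aged sperm replicate 1, unadjusted p = 0.024 from edgeR) to -0.038 for bub1bb and from -0.053 to -0.019 for ccnt2b, with no call. The summed cyclin level ran from -0.093 to 0.026, and the ccnb1 to ccna1 ratio from 0.0093 to 0.029. The causes were not tested. With mean CPM of at least 100, 2 of the 3 genes most like ccnb1 stayed.

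The replicate numbers were not taken as pairs in the main test, since the labels do not tie them to males. Same-numbered libraries had deviations whose correlations over 27342 genes were -0.0024, 0.037 and 0.089. Libraries of different numbers had -0.068 to 0.032. These values do not settle whether the numbers are pairs. With the replicate block the log2 fold change of ccnb2 was -0.081 (standard error 0.0289, unadjusted p = 0.041, adjusted p = 0.866 from edgeR), and that of fbxo43 was -0.13 (standard error 0.0340, unadjusted p = 0.0147, adjusted p = 0.846). The exact sign-flip test within replicate numbers gave p = 0.25 for the summed cyclin level, the smallest p it can give, with the value after storage lower in 3 of 3 numbers, and p = 0.5 for the ratio.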
